A study of Homo sapiens with 4 samples.

Results

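The 10 genes described here encode the MHC class II pathway: CIITA, CD74, HLA-DMA, HLA-DMB, HLA-DRA, HLA-DRB1, HLA-DPA1, HLA-DPB1, HLA-DOA and CTSS. They were taken by symbol through the annotation of the array, which gave 13 probes among 30112 probes and 20045 genes with a single symbol. CD74 had 3 probes, HLA-DRA had 2 and the other genes 1 each. RNA came from A2058, an established human melanoma cell line, as 4 cultures read on Illumina bead arrays. They were stem-like cells in hypoxia, stem-like cells in normoxia, parental cells in hypoxia and parental cells in normoxia, with 1 array for each. The stem-like cells are A2058 cells kept for 6 months under 100 uM carmustine, an alkylating drug. No label says whether they are 1 clone, nor how low or how long the hypoxia was. With 1 array a group there was no replicate check and no test, and every difference below describes these cultures.

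MHC class II molecules are pairs of an alpha and a beta chain that show peptides from the endosome to CD4 T cells. Dendritic cells, macrophages and B cells make them constantly, and many other cells, melanoma cells among them, make them under interferon-gamma. CIITA is the coactivator that switches the class II genes on, without binding DNA itself. It docks on factors held by the X and Y boxes of their promoters, chiefly the RFX complex and NF-Y. The invariant chain CD74 guides new class II molecules to the endosome, cathepsin S (CTSS) trims it, and HLA-DM loads the peptide, with HLA-DO as a brake on HLA-DM.

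Of the 10 members, 7 had an entry in the RefSeq promoter table of GRCh38.p14, which runs from 250 bases before to 50 bases after each start. A short motif pair, chosen after these promoters had been read, was looked for in them. It is AGNNAC, a core of the X box, followed on the gene's strand 25 to 40 bases later, start to start, by CCAAT or its reverse ATTGG, the core of the Y box. CD74, HLA-DMA, HLA-DRB1 and HLA-DOA held this pair, as did 2.5% of all 35116 promoters. With either strand allowed HLA-DPB1 held it as well, and the share of all promoters was 4.8%. Taken alone, AGNNAC was found on either strand in 86.5% of all promoters, and CCAAT on either strand in 34.6%. The 4 stretches are shown as the members that held the pair. It did not separate the members by their values: HLA-DOA held it and had a signal at the detection limit, while HLA-DMB and HLA-DPA1 lacked it and were among the members that were higher in stem-like cells. A match describes letters only. The capitals mark the pair in each stretch of 100 bases, and in HLA-DOA the first of 2 pairs found is marked.
CD74 (chr5:150412922-150413021, minus strand, pair 81 bases before the start): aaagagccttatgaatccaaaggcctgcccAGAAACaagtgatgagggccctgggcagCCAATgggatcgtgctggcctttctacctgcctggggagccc
HLA-DMA (chr6:32953141-32953240, minus strand, pair 113 bases before the start): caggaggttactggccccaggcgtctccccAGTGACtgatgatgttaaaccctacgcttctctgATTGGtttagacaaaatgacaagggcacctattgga
HLA-DRB1 (chr6:32589858-32589957, minus strand, pair 79 bases before the start): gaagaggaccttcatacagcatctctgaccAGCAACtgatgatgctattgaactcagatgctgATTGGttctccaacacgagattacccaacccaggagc
HLA-DOA (chr6:33009623-33009722, minus strand, pair 101 bases before the start): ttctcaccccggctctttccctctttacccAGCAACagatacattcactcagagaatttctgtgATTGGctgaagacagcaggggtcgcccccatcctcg

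Each array detected 16432 to 16945 of its 47315 probes, by a detection p-value under 0.01. Levels below are normalized intensities on the log2 scale, and the lowest level of a detected probe lay between 5.22 and 5.29. A fold with an undetected value on 1 side was computed against that lowest level and is a bound, which is what at least means before a fold below. A gene counts as higher or lower from 2-fold on. The only gauge of error was the spread between probes of the same gene. The SD of their log2 folds was 0.28 for the cell states in hypoxia, 0.30 for the cell states in normoxia, 0.23 for hypoxia in stem-like cells and 0.20 for hypoxia in parental cells. It leaves out the error between cultures and arrays. RNA was read in bulk, so a change in the number of expressing cells and a change in RNA per cell cannot be told apart.

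The first comparison asked how the carmustine-selected cells differ from the parental line. The stem-like cells had higher levels of HLA-DRA, HLA-DRB1 and HLA-DPA1 among the chains, of the invariant chain CD74, and of both chains of the peptide loader HLA-DM, in hypoxia and in normoxia. HLA-DPB1 and CTSS were detected on no array and gave no fold. HLA-DOA, detected in stem-like hypoxia alone, gave a bound under 2-fold. HLA-DMA was 11.4-fold higher in hypoxia and 15.6-fold in normoxia, HLA-DPA1 at least 12.9-fold and at least 15.5-fold, and CD74 at least 12.8-fold and at least 13.0-fold. RNA of CIITA, the switch of the class II genes, was not detected on any array. Of the 10 members, 7 could be compared in hypoxia and 6 in normoxia, and 6 were higher and 0 lower in each oxygen condition. In hypoxia 7.24% of 11000 tested genes were higher and 5.97% lower, and in normoxia 6.67% of 10758 were higher and 5.87% lower.

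The 6 are not a sample of all members, since CD74, HLA-DRB1 and HLA-DPA1 passed detection through the stem-like arrays alone and so had to point upward. HLA-DMA, HLA-DMB and HLA-DRA were detected on all 4 arrays, and the 3 of them were higher in both oxygen conditions. HLA-DOA was detected on 1 array, and CIITA, HLA-DPB1 and CTSS on none. With the detection filter left out, so that all 10 members entered, the median log2 fold was 1.76 in hypoxia and 1.89 in normoxia.

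**Figure D1:**
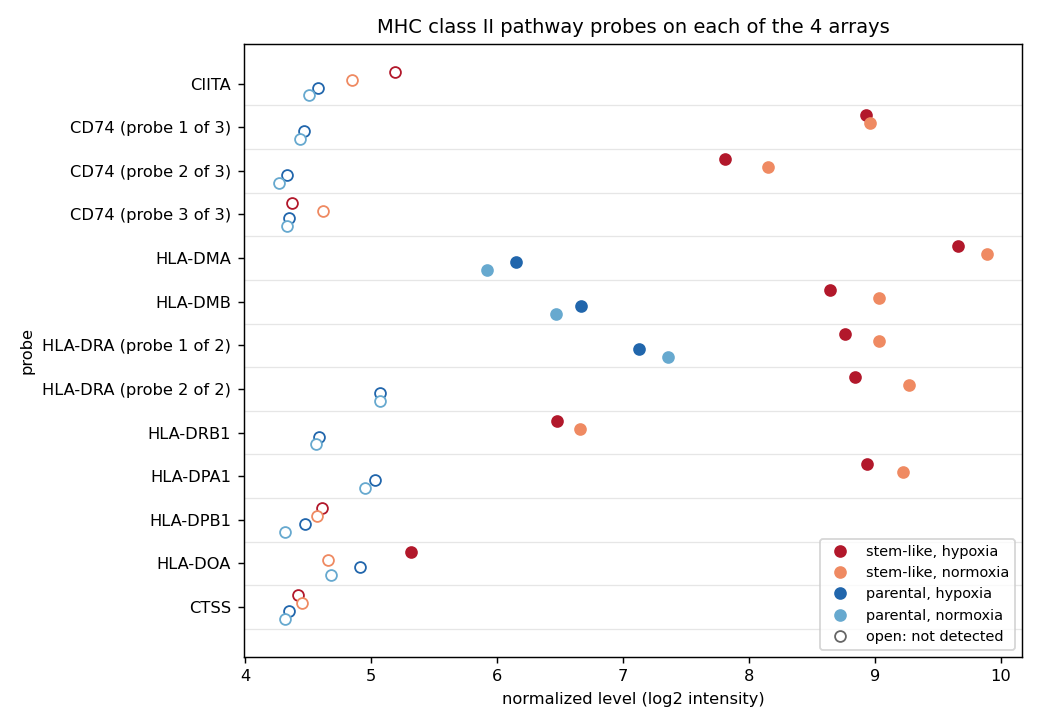
Normalized level (log2 intensity, horizontal axis) of each of the 13 probes of the MHC class II pathway genes on the 4 arrays, 1 point per array, with open circles for values that were not detected. Of 13 probes, 8 have their stem-like points at 6.48 or above and to the right of both parental points, while the third CD74 probe and the probes of CIITA, HLA-DPB1, HLA-DOA and CTSS stay at 5.32 or below. How many of all probes on the arrays separate in this way was not counted.

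CIITA, the class II transactivator, was read by 1 probe. Its level was 5.19 in stem-like hypoxia and 4.85 in stem-like normoxia, against 4.58 in parental hypoxia and 4.51 in parental normoxia. The detection p-values were 0.0104 and 0.0987 in the stem-like cells and 0.319 and 0.488 in the parental cells. Its signal in stem-like hypoxia thus stood just outside the detection limit and would count as detected with a limit of 0.05. The stem-like values were the higher ones, but all 4 lay under the lowest detected level of their arrays, so no fold is given. CIITA has several promoters and transcript forms, and which of them the probe reads was not looked up here.

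CD74, the invariant chain, was undetected in parental cells. Its brightest probe stood at 8.93 in stem-like hypoxia and 8.96 in stem-like normoxia, against 4.47 in parental hypoxia and 4.44 in parental normoxia. The stem-like values lay far above the parental ones, which were at background with detection p-values of 0.556 and 0.656. A second CD74 probe gave levels of 7.81 and 8.15 in the stem-like cells, against 4.33 and 4.27 in the parental cells, or at least 5.88-fold in hypoxia and at least 7.38-fold in normoxia. The third was not detected on any array, with levels from 4.33 to 4.62. Probes of CD74 thus disagree on detection, and which transcript forms they read was not checked.

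HLA-DMA and HLA-DMB encode the alpha and beta chains of HLA-DM, the endosomal molecule that exchanges the invariant chain fragment for antigenic peptide. HLA-DMA stood at 9.66 in stem-like hypoxia and 9.89 in stem-like normoxia, against 6.15 in parental hypoxia and 5.92 in parental normoxia. HLA-DMB stood at 8.64 and 9.03 in the stem-like cells, against 6.67 and 6.47 in the parental cells. Both genes were thus detected in the parental line as well.

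The log2 fold of HLA-DMA was 3.51 in hypoxia and 3.96 in normoxia, and that of HLA-DMB 1.97 and 2.57. HLA-DMB was thus 3.93-fold higher in hypoxia and 5.93-fold in normoxia. Among genes detected on both arrays of a comparison, HLA-DMA had rank 29 of 9381 by log2 fold in hypoxia and rank 15 of 9261 in normoxia. HLA-DMB had rank 133 in hypoxia and rank 59 in normoxia, so the fold of the alpha chain was the larger one in each condition. Each chain was read by a single probe, and the between-probe SD is no gauge of a difference between 2 genes. Whether the order of the 2 chains rests on the probes was not tested.

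HLA-DRA, the alpha chain of HLA-DR, gave different folds by its 2 probes. The probe with the higher mean stood at 8.76 in stem-like hypoxia and 9.03 in stem-like normoxia, against 7.13 in parental hypoxia and 7.36 in parental normoxia. By this probe HLA-DRA was 3.10-fold higher in hypoxia and 3.19-fold in normoxia. The other probe stood at 8.84 and 9.27 in the stem-like cells, against 5.07 and 5.07 in the parental cells, where its detection p-values were 0.0247 and 0.0338.

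By the second HLA-DRA probe the fold was at least 12.0-fold in hypoxia and at least 16-fold in normoxia. The probes were close in the stem-like cells and differed in the parental cells, where only the first was detected. Both put the stem-like cells higher by at least 2-fold, and the size of the HLA-DRA fold depends on the probe.

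HLA-DRB1, the main beta chain that pairs with HLA-DRA, stood at 6.48 in stem-like hypoxia and 6.66 in stem-like normoxia, against 4.59 and 4.56 in the parental cells. Its parental signal was not detected, and the gene was at least 2.34-fold higher in hypoxia and at least 2.62-fold in normoxia. Without background correction this bound fell under 2-fold, with a log2 fold of at least 0.47 in hypoxia and at least 0.56 in normoxia. HLA-DRB1 is highly polymorphic and has near-identical copies among the other HLA-DRB genes, so both the allele fit of the probe and which copy it measured are uncertain.

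HLA-DPA1, the alpha chain of HLA-DP, stood at 8.94 in stem-like hypoxia and 9.22 in stem-like normoxia, against 5.03 in parental hypoxia and 4.95 in parental normoxia. The parental values had detection p-values of 0.0312 and 0.0571 and count as undetected. Its partner HLA-DPB1, the beta chain, was detected on no array. HLA-DPB1 stood at 4.61 and 4.57 in the stem-like cells, against 4.48 and 4.32 in the parental cells. The 2 chains of HLA-DP thus differed in detection, and whether the single HLA-DPB1 probe fits the alleles of this line was not tested.

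HLA-DOA encodes the alpha chain of HLA-DO, which restrains HLA-DM in B cells and some dendritic cells. It stood at 5.32 in stem-like hypoxia and 4.66 in stem-like normoxia, against 4.91 in parental hypoxia and 4.68 in parental normoxia. Only the value in stem-like hypoxia was detected, with a detection p-value of 0.00519, and the bound against parental hypoxia was at least 1.05-fold. CTSS, the endosomal protease cathepsin S, stood at 4.42 and 4.45 in the stem-like cells, against 4.35 and 4.32 in the parental cells, with detection p-values of 0.621 or above. CTSS thus gave no fold, and no bound of HLA-DOA reached 2-fold.

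**Figure D2:**
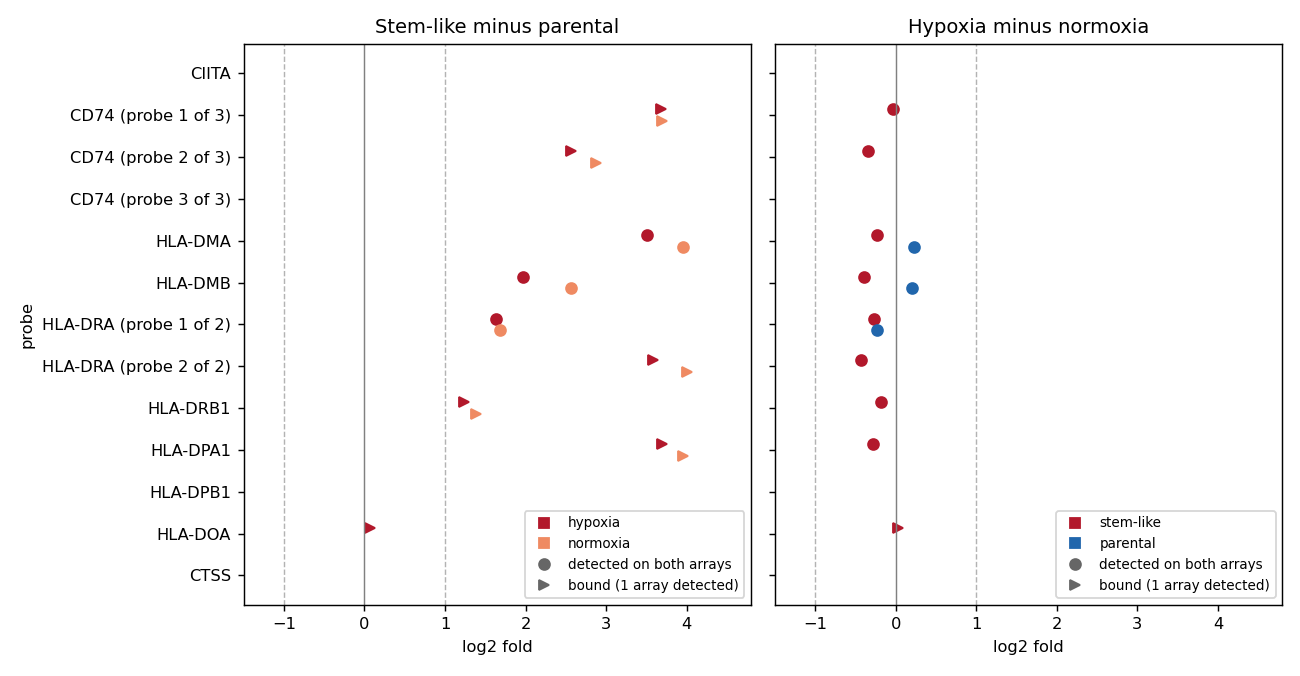
Log2 fold (horizontal axis) of each probe of the MHC class II pathway genes, on the left stem-like minus parental in hypoxia and in normoxia, on the right hypoxia minus normoxia in stem-like and in parental cells. Circles are values detected on both arrays, triangles are bounds, dashed lines mark 2-fold, and a probe without a mark was detected on neither array. On the left 8 probes lie between 1.23 and 4.0, and on the right no probe passes 2-fold, with values from -0.43 to 0.23.

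The second comparison asked whether hypoxia changed these genes within a cell state. No member that could be compared differed by 2-fold. In stem-like cells 7 of the 10 members were detected on at least 1 array. Of these 0 were higher and 0 lower, against 0.491% higher and 0.189% lower among 10595 tested genes. In parental cells, where 3 members could be measured, 0 were higher and 0 lower, against 0.383% and 0.0766% of 10442 genes.

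The smaller differences in stem-like cells ran one way among members detected on both arrays. HLA-DOA, detected in hypoxia alone at 5.32 against 4.66, went the other way, with a log2 fold of at least 0.03. Of the 8 probes of 6 genes detected on both stem-like arrays, 8 had a lower level in hypoxia than in normoxia, with log2 folds from -0.43 to -0.03. Across all genes detected on both arrays 49.5% had a log2 fold below 0. When arrays were scaled to a common median instead of by quantiles, 7 of the 8 were below 0 and the brightest CD74 probe stood at 0.06, while the median of all genes moved to 0.08. HLA-DMB had -0.39, HLA-DPA1 -0.28, HLA-DRA -0.27 by its first probe and -0.43 by its second, HLA-DMA -0.23, HLA-DRB1 -0.18, and CD74 -0.03 and -0.34. Most of these values lie near the between-probe SD of 0.23, and the 8 probes share the same pair of arrays, so they are not independent readings of hypoxia.

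In parental cells the log2 fold of hypoxia over normoxia was 0.23 for HLA-DMA, 0.20 for HLA-DMB and -0.23 for HLA-DRA. The difference of the hypoxia log2 folds, stem-like minus parental, was -0.46 for HLA-DMA, -0.60 for HLA-DMB and -0.04 for HLA-DRA. Over the 9006 genes detected on all 4 arrays this difference had an SD of 0.31 and a median of 0.00. The values of the HLA-DM chains are between 1 and 2 SD of all genes, and no test of them was possible.

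Apart from the 10 members, 5 lists covered the rest of the pathway, with 89 entries of which 84 had a probe and 57 were detected. They hold other class II chains, promoter factors and CIITA cofactors, interferon-gamma signalling, endosomal proteases and reductases, and partners of class II at the cell surface. The median log2 fold of all tested genes, which the list medians can be read against, was 0.00 in hypoxia and -0.01 in normoxia. The counts of higher and lower genes in each list can be read against the shares of all tested genes. These were 7.24% higher and 5.97% lower in hypoxia, and 6.67% higher and 5.87% lower in normoxia. With so few genes in a list, a count near these shares says nothing particular about the list.

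Of 8 other class II chain genes with a probe, 4 were detected, and the list's median log2 fold was 0.44 in hypoxia and 0.37 in normoxia. HLA-DQA2, HLA-DQB1, HLA-DRB5 and HLA-DOB were detected on no array. HLA-DRB3 stood at 7.90 and 8.14 in the stem-like cells, against 7.97 and 8.18 in the parental cells, so this beta chain probe read about the same in both states. HLA-DRB4 was 2.93-fold higher in hypoxia and 1.97-fold in normoxia by its brightest probe, but -0.16 in hypoxia on the log2 scale and at least 0.44 in normoxia by another. HLA-DRB6 was detected in stem-like cells alone, at least 1.92-fold higher in hypoxia and at least 1.72-fold in normoxia by its brighter probe. Its other probe gave log2 folds of at least 0.01 in hypoxia and at least 0.32 in normoxia. The pseudogene HLA-DPB2 was detected in parental cells alone and was at least 1.73-fold lower in stem-like cells in hypoxia and at least 1.75-fold lower in normoxia. The HLA-DRB genes are near-identical copies of each other and of HLA-DRB1, many people lack some of them, and which copy each probe measured is uncertain.

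The list of promoter factors and CIITA cofactors holds the RFX and NF-Y subunits as well as histone modifiers and the repressor PRDM1. Of 17 genes detected, 1 was higher and 2 lower in hypoxia, and 0 were higher and 1 lower in normoxia. The higher one was PRDM1, detected in stem-like cells alone, at least 2.42-fold in hypoxia and at least 1.18-fold in normoxia. The median log2 fold was -0.32 in hypoxia and -0.30 in normoxia, and 15 of the 17 were below 0 in each condition, as were 50% of all genes tested in hypoxia and 51.1% in normoxia. PRDM1 and NFYC, an NF-Y subunit, were above 0. That count stayed at 15 when background correction was dropped and when the authors' table was used. Both keep the order of probes within an array and nearly equal quantiles, so they could hardly change a sign. Median scaling, which could change signs, also gave 15. It moved the median of all genes to -0.11 in hypoxia and -0.21 in normoxia, and their share below 0 to 58.5% and 65.7%. The count was not repeated with other probes of these genes.

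RFX5, the DNA-binding subunit of the RFX complex, stood at 9.78 and 9.89 in the stem-like cells, against 9.94 and 10.00 in the parental cells. RFXANK, by its brightest probe, stood at 8.36 and 8.60 in the stem-like cells, against 8.81 and 9.05 in the parental cells. RFXAP stood at 6.79 and 6.87 in the stem-like cells, against 7.14 and 7.39 in the parental cells. All 3 subunits of the RFX complex were thus detected on all 4 arrays, with log2 folds between -0.52 and -0.11 by their brightest probes. The further RFXANK probes stood at -0.15 and 0.13 in hypoxia and within 0.06 of 0 in normoxia, and a second RFX5 probe was at least 0.22 higher in hypoxia. NFYA, a subunit of the CCAAT-binding factor NF-Y, was 2.04-fold lower in hypoxia and at least 2.25-fold lower in normoxia.

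Genes of interferon-gamma signalling had folds of both signs. Of 14 genes detected in hypoxia 1 was higher and 0 lower, and of 13 detected in normoxia 2 were higher and 1 lower, with a median log2 fold of -0.12 in hypoxia and 0.13 in normoxia. GBP1, an interferon-induced GTPase, was 2.21-fold higher in hypoxia and 3.23-fold in normoxia. IRF1, a transcription factor that acts on the interferon-responsive CIITA promoter, stood at 8.03 and 8.22 in the stem-like cells, against 7.11 and 7.04 in the parental cells.

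IRF1 was thus 1.89-fold higher in hypoxia and 2.27-fold in normoxia. JAK2, a kinase of the interferon-gamma receptor, stood at 4.74 and 4.77 in the stem-like cells, where it was undetected, against 6.07 and 6.36 in the parental cells. It was at least 1.81-fold lower in hypoxia and at least 2.09-fold lower in normoxia. IFNG, the gene of interferon-gamma itself, was detected on no array.

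Among endosomal proteases and reductases, several genes differed by more than 2-fold in opposite directions. Of 13 detected, 1 was higher and 3 lower in hypoxia, and 2 were higher and 2 lower in normoxia, with a median log2 fold of 0.31 in hypoxia and 0.22 in normoxia. CTSL, the cathepsin that trims the invariant chain in thymic cortex of mice, was 3.31-fold higher in hypoxia and 2.51-fold in normoxia, and its other probes gave log2 folds between 1.38 and 1.81. CTSV, its human relative in thymus, was 7.17-fold lower in hypoxia and 3.79-fold lower in normoxia.

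CTSH, a lysosomal aminopeptidase, was 4.84-fold lower in hypoxia and 4.23-fold lower in normoxia by its brighter probe, the other being near background. IFI30, the interferon-inducible reductase that opens disulfide bonds of antigens, stood at 7.17 and 7.69 in the stem-like cells, against 6.33 and 6.53 in the parental cells, or 1.79-fold higher in hypoxia and 2.25-fold in normoxia. LGMN, an asparaginyl endopeptidase that cuts the invariant chain, had log2 folds of 0.37 in hypoxia and 0.33 in normoxia.

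Of the genes for turnover and partners at the surface, 9 were detected in hypoxia and 8 in normoxia, and 1 was higher and 1 lower in each condition. The median log2 fold was 0.10 in hypoxia and -0.09 in normoxia. CD9, a tetraspanin that associates with class II molecules, was 3.68-fold higher in hypoxia and 3.42-fold in normoxia, and its other probe was near background. TNFRSF14, a receptor that binds BTLA on lymphocytes, was 4.38-fold lower in hypoxia and 3.42-fold lower in normoxia. Of the co-stimulatory genes, CD80 and CD40 were detected on no array and CD86 in stem-like hypoxia alone, at 5.40.

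**Figure D3:**
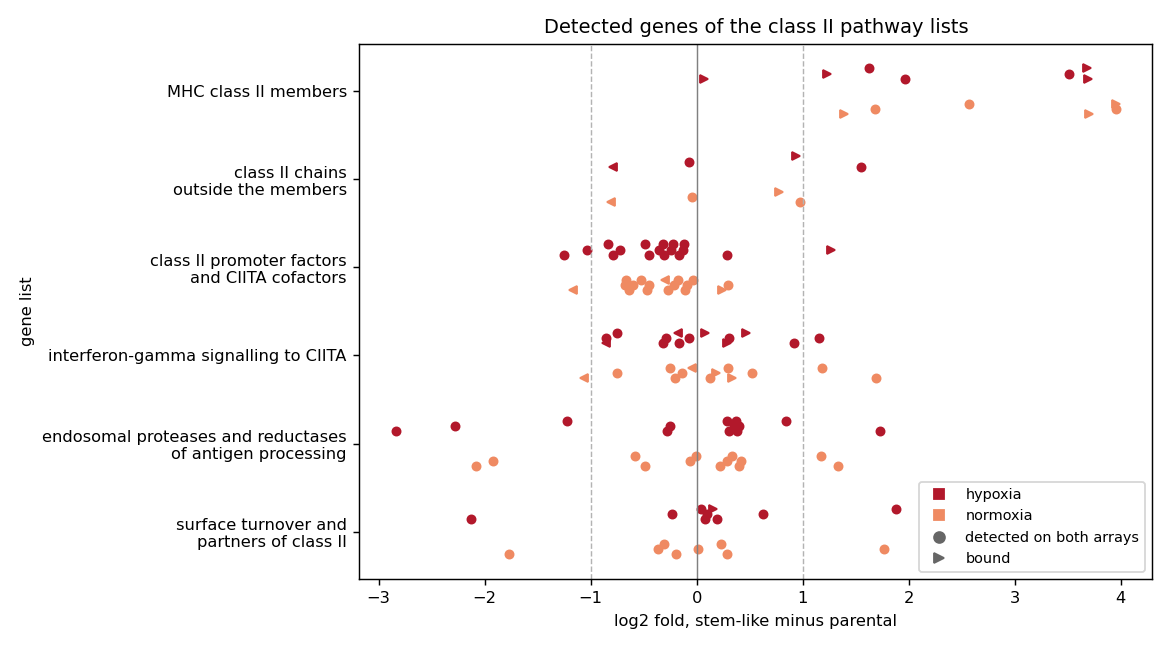
Log2 fold, stem-like minus parental (horizontal axis), of every detected gene in the MHC class II members and in the 5 further lists of the pathway, in hypoxia and in normoxia, 1 point per gene. Circles are genes detected on both arrays, triangles are bounds and dashed lines mark 2-fold. Members reach 3.96 and all members shown lie above 0, while 15 of 17 promoter factors and cofactors lie below 0 and the proteases spread from -2.84 to 1.73.

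Class II genes are normally made by leukocytes, so markers of those cells were read on the same arrays. Of 7 B cell markers with a probe, CD79B alone was detected, at 5.38 and 5.83 in the stem-like cells and 5.36 and 5.29 in the parental cells. Linear levels were summed over the genes of a list with a probe, detected or not. The sum of the B cell list was 200.3 and 233.6 in the stem-like cells, against 196.5 and 192.5 in the parental cells. MS4A1, CD79A and PAX5 were detected on no array. Of 7 T cell markers, LCK alone was detected, on 1 array, with sums of 189.1 and 175.5 in the stem-like cells, against 176.6 and 169.6 in the parental cells. The 4 endothelial markers summed to 132.6 and 116.5 in the stem-like cells, against 117.8 and 97.47 in the parental cells. Undetected genes add background to these sums. The T cell list summed to 175.5 in stem-like normoxia, 176.6 in parental hypoxia and 169.6 in parental normoxia with no gene detected.

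Of 12 myeloid and dendritic markers, 4 were detected on any array. The sum, again with the background of undetected genes, was 613.3 and 572.7 in the stem-like cells, against 302.8 and 322.8 in the parental cells. CD14, a co-receptor for bacterial lipopolysaccharide, stood at 8.11 and 7.83 in the stem-like cells, against 4.99 and 5.52 in the parental cells. By this probe it was at least 7.26-fold higher in hypoxia and 4.95-fold in normoxia, while another CD14 probe was detected on no array. LYZ, which encodes lysozyme, was at least 1.79-fold and at least 2.32-fold higher. PTPRC, the pan-leukocyte gene CD45, and SPI1, TYROBP and ITGAX were detected on no array. CD14, by 1 probe, was thus higher in both oxygen conditions, while the bound of LYZ reached 2-fold in normoxia only. LYZ was detected in stem-like cells alone, so its bounds could only point upward. The same holds for CD14 in hypoxia, where its parental value was undetected. CSF1R and AIF1 were detected on 1 array each, at 5.53 in stem-like hypoxia and 5.31 in parental normoxia, and the other markers on none. The part of these genes in the result was not tested.

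The melanoma label was checked in the same way. Of 8 lineage markers with a probe, 5 were detected on each stem-like array and 7 on each parental array. SOX10 stood at 9.94 and 10.26 in the stem-like cells, against 11.12 and 11.04 in the parental cells. S100A1 stood at 7.61 and 7.55 in the stem-like cells, against 7.72 and 7.76 in the parental cells. MITF, the melanocyte master regulator, was 8.53-fold lower in hypoxia and 4.72-fold lower in normoxia, and the pigment cell genes PMEL, MLANA and TYR were lower by more than 2-fold in both conditions.

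Most members lie side by side on chromosome 6. By the order in RefSeq, 18 protein-coding genes run from HLA-DRA to HLA-DPB1, 13 of them class II and 5 others, which were listed after the values had been seen. BRD2, a chromatin reader that lies between HLA-DMA and HLA-DOA, stood at 10.93 and 11.06 in the stem-like cells, against 11.12 and 11.01 in the parental cells. This neighbour thus read about the same in both states, with log2 folds of -0.20 in hypoxia and 0.05 in normoxia, while HLA-DMA beside it stood at 3.51 and 3.96.

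The other 4 neighbours serve class I presentation. PSMB9, an immunoproteasome subunit, was undetected in parental cells and at least 1.22 higher in hypoxia and at least 1.70 higher in normoxia on the log2 scale. TAP1 and TAP2 encode the peptide transporter, and PSMB8 is a further immunoproteasome subunit. TAP1 had a log2 fold of 1.04 in hypoxia and 0.95 in normoxia, PSMB8 one of 0.98 and 0.97, and TAP2 one of 0.12 and 0.24. CD74 lies on chromosome 5, outside this region. It was higher in stem-like cells too, but as it was detected there alone its fold could only point upward.

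**Figure D4:**
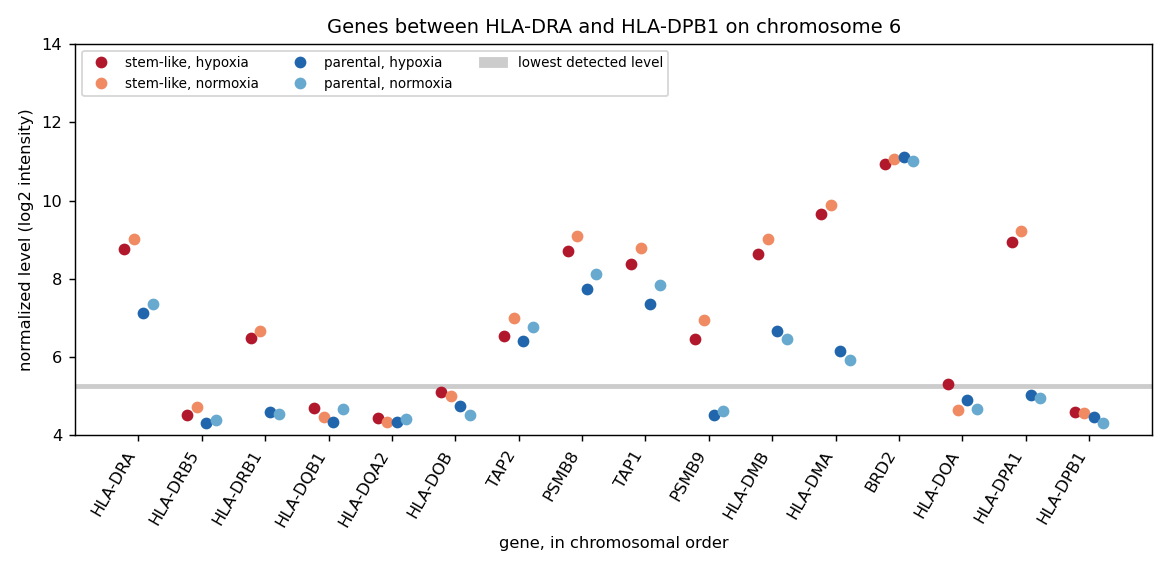
Normalized level (log2 intensity, vertical axis) of the genes with a probe from HLA-DRA to HLA-DPB1 on chromosome 6, in chromosomal order without scale, 1 point per array; the grey band is the range of the lowest detected level over the 4 arrays. HLA-DMB and HLA-DMA have stem-like points far above the parental ones, while the 4 points of BRD2 lie between 10.93 and 11.12.

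Likeness to CD74 was measured as the mean absolute difference from it, over the 4 arrays, of log2 level minus the gene's own mean level, among 9710 genes detected on both stem-like arrays. The 5 most alike were CACNA2D4 and CHRNA9 at 0.08 each, FOXD1 at 0.11, and SPANXA2 and EPDR1 at 0.12 each. They encode a calcium channel subunit, a nicotinic receptor subunit, a forkhead transcription factor, a cancer-testis protein of a family of near-identical copies, and a secreted ependymin-related protein. All 5 were detected on both stem-like arrays and on neither parental array, as was CD74. Their distances therefore rest in part on background levels, and the measure picks genes of similar brightness that were detected in stem-like cells alone, so the order among them carries little. Among the members HLA-DPA1 came nearest, at rank 15 with 0.20, and HLA-DMA followed at rank 46 with 0.38. The parental values of HLA-DPA1 were undetected too. HLA-DMB stood at rank 201, HLA-DRB1 at 275 and HLA-DRA at 385.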

How the data were processed

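Per the labels' protocols, biotin-labelled cRNA of 4 cultures was hybridised to Illumina bead arrays. The non-normalized table deposited by the authors gives mean bead intensity values on a linear scale, not background-subtracted as judged from the values, and a detection p-value per probe, per the file headers. A second deposited table holds intensity values with nearly equal quantiles on all arrays. Which software and normalization the authors used is not stated in the labels or headers.

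The non-normalized table has 47323 lines of values and 47315 identifiers, out of step. Each line was matched to the second table along 1 ordered path. Spearman's rho between the tables was 0.0155 as printed and 1.00 after realignment, and 8 lines were not used. Between levels of 2 probes of a gene, over 6691 genes, it was 0.025 and 0.449.

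Of the probes, 30112 had 1 symbol, 8 had several and 17195 had none. limma 3.58.1 in R 4.3.3 applied normexp with an offset of 16, negative controls inferred from detection p-values, quantile normalization and log2. The brightest probe by mean stood for a gene. With 1 array a group no test was made. The fold steps were tested on simulated data. Named were all members, list genes past 2-fold in both oxygen conditions, some fixed regulators and the 5 genes most like CD74; others named in the text were chosen after their values were seen. The members and lists were chosen with earlier results of these data known.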

Additional observations from a re-analysis of the deposited data

Results flagged for a closer look

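HLA-DMA and HLA-DMB had hypoxia log2 folds of opposite sign in the cell states. HLA-DMA had -0.23 in stem-like and 0.23 in parental cells, a difference of -0.46. HLA-DMB had -0.39 in stem-like and 0.20 in parental cells, a difference of -0.60. With 1 array a group the difference was not tested. Of the 9006 genes detected on all 4 arrays, 40.2% had opposite signs.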

How the results depend on the processing

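Under all 7 alternatives the count of members higher in stem-like cells stayed within 1.5 times its value, no member was lower by 2-fold, and no called fold changed sign. Much of this stability of sign was fixed in advance. With a detection filter the bounds of CD74, HLA-DRB1 and HLA-DPA1 could not point downward. Dropping background correction or using the authors' table keeps the order of probes within an array, and so the signs. The median log2 fold of members, stem-like over parental, was 1.97 in hypoxia, with HLA-DOA, and 3.13 in normoxia, without it, bounds included. Over the 3 members detected on both arrays it was 1.97 and 2.57. With background correction dropped it was 1.33 in hypoxia and 1.96 in normoxia, and the count of higher members was 5 in each. It was 1.34 and 1.97 from the authors' table, and 1.89 in normoxia with no detection filter. In hypoxia it was 2.70 with the mean of detected probes and 2.56 with the second probe. The median difference of hypoxia folds was -0.46 over 3 members and -0.09 over 10 with no filter. A value counted as moved past 1 between-probe SD. Folds of dim genes depend on background correction: the log2 fold of HLA-DMA in normoxia was 2.74 without it and 3.96 with it, and the bound of HLA-DRB1 was 0.56 and 1.39. At the detection limit of 0.01 CIITA, HLA-DPB1 and CTSS were not detected and gave no fold. CIITA counted as detected in stem-like hypoxia with a limit of 0.05, and all members entered with no filter. The folds of these genes under those alternatives are not given here. No paired analysis was possible because each group has 1 array.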
